A study of Drosophila melanogaster with 2 samples.

Results

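In the *Drosophila melanogaster* genome many neighbouring protein-coding genes lie head to head, with a minus-strand start to the left of a plus-strand start and a short stretch of DNA between them. Peaks of the tagged transcription factor Camta at such divergent promoters are described here. A divergent pair was a pair of neighbouring protein-coding genes on opposite strands whose facing transcript starts were at most 1000 bp apart, and a peak was kept when its summit, the position of highest enrichment, lay within 500 bp of a start of both genes. Of the 4033 peaks that passed the irreproducible discovery rate (IDR) threshold, 759 met this rule. They served 752 of 2592 divergent pairs (29.0%), which left 1840 pairs without such a peak for comparison.

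Chromatin immunoprecipitation and sequencing (ChIP-seq) with an antibody against GFP was carried out on whole embryos of mixed sex, 0 to 24 h old, of the strain Camta-MiMIC-GFP. In this line an eGFP exon inserted in an intron of Camta makes a fusion protein at the gene's own locus, so the binding of the tagged protein, not of untagged Camta, was measured in a mixture of all embryonic cells and stages. There was 1 group, of 2 biological replicates numbered 2 and 3, and no untagged or treated group was analysed here. Sequencing depth is unknown, since the deposited lists hold no read counts, and intervals below cover only the number of peaks, pairs or genes.

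Camta belongs to a family of transcription activators that bind calmodulin, and through it calcium, and that recognise a CGCG box in vitro. Divergent promoters place a single nucleosome-poor stretch upstream of both genes, so a factor bound there cannot be assigned to either gene by position alone. Many fly genes of this kind are active in most tissues and carry core promoter motifs of that class, among them the DRE, bound by DREF, Motif 1, bound by M1BP, and the motifs numbered 6 and 7 in surveys of fly core promoters.

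The stretches between the starts are shown for the 5 strongest peaks whose facing starts were at most 250 bp apart, because they are the DNA that both promoters share, followed by 2 pairs without a peak of like start distance. All are the plus strand of dm6 from RefSeq (Release 6 assembly), from 20 bp outside one facing start to 20 bp outside the other. Capitals mark matches on either strand to Motif 7 (CANCNCTA), the DRE (TATCGATA), the ZIPIC core (CAGGGCT) or the E-box (CAGCTG). Chro/Ssl1 lies at chr3L:22878964-22879109, Tcs5/CHMP2B at chr3L:5139375-5139639, Fbw5/CG9147 at chr2L:6065933-6066017, CG11309/CG7632 at chr3L:21304638-21304717 and CG8372/CG8360 at chr2L:8212882-8212979. The pairs without a peak are COX7A/Arl2 at chr3R:8341023-8341120 and Ns1/mRpS11 at chr3R:17072655-17072752. Of the 7 stretches, 3 hold no match to these 4 motifs, including that of the strongest pair. A stretch need not hold the summit. At Chro/Ssl1, CG11309/CG7632 and CG8372/CG8360 the summit lay more than 20 bp inside a gene of the pair, outside the DNA printed. The summit at Fbw5/CG9147 was outside it as well, 145 bp from the nearest Fbw5 start, where the facing starts were 44 bp apart. Matches and their absence there describe the DNA between the starts, not that under the summit.
Chro/Ssl1: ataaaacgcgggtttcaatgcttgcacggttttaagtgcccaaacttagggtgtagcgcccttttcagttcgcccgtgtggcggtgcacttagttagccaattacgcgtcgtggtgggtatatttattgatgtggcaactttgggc
Tcs5/CHMP2B: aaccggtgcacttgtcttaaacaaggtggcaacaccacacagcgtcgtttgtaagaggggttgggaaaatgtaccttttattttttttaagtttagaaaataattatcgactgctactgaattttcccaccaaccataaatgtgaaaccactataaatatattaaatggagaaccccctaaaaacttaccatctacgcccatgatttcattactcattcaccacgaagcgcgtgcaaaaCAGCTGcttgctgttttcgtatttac
Fbw5/CG9147: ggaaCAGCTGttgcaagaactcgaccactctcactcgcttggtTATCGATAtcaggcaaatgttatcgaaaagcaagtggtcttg
CG11309/CG7632: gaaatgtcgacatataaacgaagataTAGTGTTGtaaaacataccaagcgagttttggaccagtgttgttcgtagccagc
CG8372/CG8360: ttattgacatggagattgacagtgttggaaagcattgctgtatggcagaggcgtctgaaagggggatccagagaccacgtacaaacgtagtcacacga
COX7A/Arl2: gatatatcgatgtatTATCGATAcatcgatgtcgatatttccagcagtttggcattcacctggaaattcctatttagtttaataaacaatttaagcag
Ns1/mRpS11: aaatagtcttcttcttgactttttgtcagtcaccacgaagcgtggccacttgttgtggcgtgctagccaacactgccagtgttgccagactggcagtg

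A further 4 pairs were taken for the arrangement that differed most between pairs with and without a peak, Motif 7 beside the starts of genes about 250 bp apart. They are the strongest pairs with a peak and Motif 7 whose facing starts were 201 to 260 bp apart, and were chosen after the values were seen. At alien/CG18661 the only match is less close, more than 50 bp upstream of the minus-strand start. Capitals are as above, and TAGNGNTG is Motif 7 read on the other strand. Atat/Shc lies at chr3L:9426738-9427030, CG10147/Bulli at chr3L:6488404-6488701, alien/CG18661 at chr2L:8997359-8997625 and Ing5/CG7099 at chr2L:13387292-13387591.
Atat/Shc: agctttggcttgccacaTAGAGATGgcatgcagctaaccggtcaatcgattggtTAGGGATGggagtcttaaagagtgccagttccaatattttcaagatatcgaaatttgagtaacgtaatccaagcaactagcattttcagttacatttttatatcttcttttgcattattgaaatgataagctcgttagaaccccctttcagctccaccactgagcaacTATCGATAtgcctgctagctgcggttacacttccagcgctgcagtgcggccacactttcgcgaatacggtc
CG10147/Bulli: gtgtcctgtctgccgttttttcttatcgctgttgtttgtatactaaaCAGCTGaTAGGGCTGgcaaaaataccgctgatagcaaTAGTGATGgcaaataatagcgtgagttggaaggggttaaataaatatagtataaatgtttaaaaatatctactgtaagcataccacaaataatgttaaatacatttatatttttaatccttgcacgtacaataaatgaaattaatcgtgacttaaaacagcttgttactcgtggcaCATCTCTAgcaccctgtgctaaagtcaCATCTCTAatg
alien/CG18661: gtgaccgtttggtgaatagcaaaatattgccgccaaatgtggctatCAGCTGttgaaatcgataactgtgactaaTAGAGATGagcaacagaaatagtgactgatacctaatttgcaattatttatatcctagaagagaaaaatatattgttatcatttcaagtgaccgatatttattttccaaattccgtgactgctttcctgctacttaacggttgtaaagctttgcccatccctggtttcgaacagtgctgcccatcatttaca
Ing5/CG7099: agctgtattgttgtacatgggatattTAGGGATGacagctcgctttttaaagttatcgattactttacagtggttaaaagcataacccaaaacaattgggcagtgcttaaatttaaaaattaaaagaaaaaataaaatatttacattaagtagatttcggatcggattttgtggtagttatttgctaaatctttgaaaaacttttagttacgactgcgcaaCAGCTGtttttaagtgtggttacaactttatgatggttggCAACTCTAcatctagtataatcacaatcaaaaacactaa

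Camta peaks were found more often at divergent genes than at others. Of the 4993 genes in divergent pairs, 1674 (33.5%) had at least 1 start with an IDR summit no farther than 500 bp away, against 945 of 8952 other protein-coding genes (10.6%) and 18.8% of all protein-coding genes. The difference was 23.0 percentage points (95% Newcombe interval 21.5 to 24.4), with 20.4 points in replicate 2 and 24.4 in replicate 3 when the strongest regions of each replicate, as many as there were IDR peaks, were used alone. A summit between 2 starts counts for both genes. With each summit counted only for the gene of its nearest start the shares were 19.6% and 10.2%, a difference of 9.41 points (8.16 to 10.7), smaller than before but in the same direction.

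The share of pairs with a peak was 29.0% (95% Wilson interval 27.3 to 30.8) in the IDR list, 26.1% in replicate 2 alone (677 pairs) and 29.9% in replicate 3 alone (776 pairs). Because 168 genes are in more than 1 pair, the pairs rest on 2462 distinct facing intervals, and with each interval counted once the share was 28.8%. Another 229 pairs had an IDR summit near only 1 gene, or a separate one near each, and 1611 had none. In the relaxed list of peaks and background that the authors made from both replicates as input to the IDR step, 1608 pairs (62.0%) had a summit near both starts, among them 856 of the 1840 pairs without an IDR peak (46.5%).

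Peaks that passed the IDR threshold were divergent more often than regions that did not. The kept peaks were 18.8% of the IDR list, against 984 of 25098 relaxed regions outside IDR peaks (3.92%), a difference of 14.9 points (95% Newcombe interval 13.7 to 16.2). Among summits within 500 bp of a coding start the shares were 37.1% of 2045 and 16.6% of 5932, a difference of 20.5 points (18.2 to 22.8). Most kept peaks served 1 pair, 37 served 2 or more, with a highest number of 7, and 56 pairs held 2 or more kept peaks. Only 14 of the 759 also lay within 500 bp of the start of a non-coding gene.

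Binding was most frequent at starts 201 to 400 bp apart. A peak was present at 389 of the 923 pairs of that spacing (42.1%, 95% Wilson interval 39.0 to 45.4), against 228 of 782 pairs with starts up to 200 bp apart (29.2%), 122 of 467 at 401 to 600 bp (26.1%), 12 of 255 at 601 to 800 bp (4.71%) and 1 of 165 beyond (0.606%). The step from the closest group to the next was 13.0 points (95% Newcombe interval 8.44 to 17.4), 10.9 in replicate 2 and 15.4 in replicate 3. The stretch within 500 bp of both starts shrinks as starts move apart, so the fall beyond 400 bp follows in part from the rule. Of the pairs with any relaxed summit, which meets the same rule, 40.6% of the closest group and 54.8% of those 201 to 400 bp apart had an IDR peak, a difference of 14.1 points (8.63 to 19.5). In steps of 100 bp, chosen after the values were seen, the share was 44.3% at 201 to 300 bp and 39.2% at 301 to 400 bp.

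**Figure D1:**
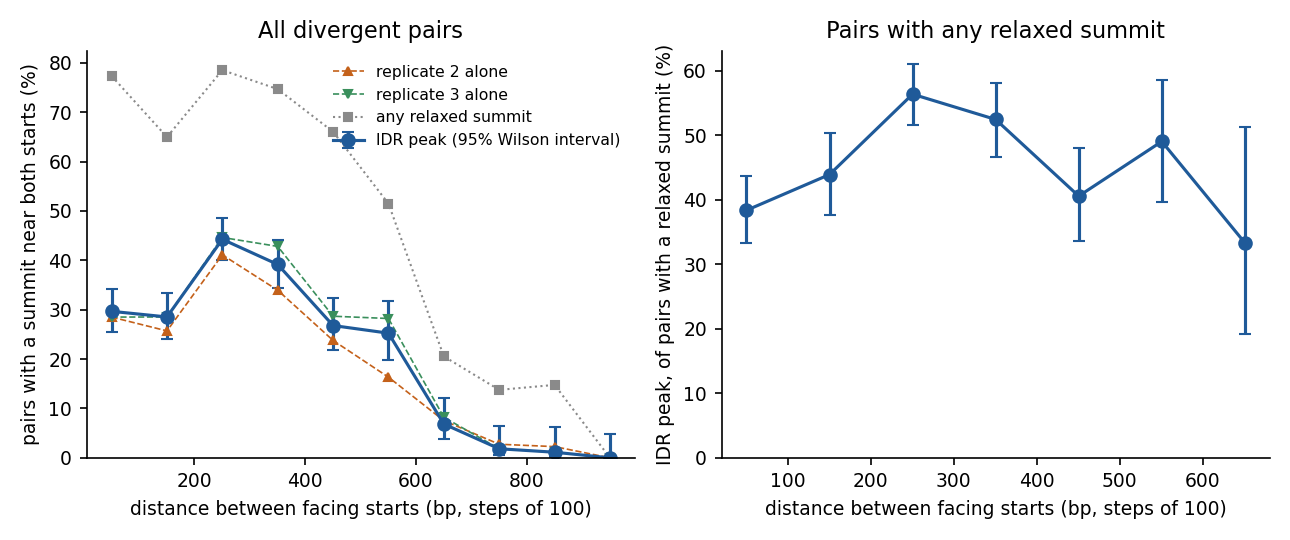
Left, share of divergent pairs with a summit within 500 bp of both starts, against the distance between facing starts in steps of 100 bp, for the IDR list with 95% Wilson intervals, for the strongest regions of each replicate alone and for any relaxed summit; right, share with an IDR peak among pairs with a relaxed summit, for steps with at least 20 such pairs. The IDR share reached 44.3% at 201 to 300 bp, and replicates 2 and 3 stood at 41.1% and 44.6% there.

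Taken over all pairs, those with a peak had closer starts, with a median of 263 bp against 327 bp, a Hodges-Lehmann shift of -77 bp (95% interval -98 to -58). The rule itself favours close starts, since the stretch within 500 bp of both shrinks as they move apart. This shift alone therefore cannot show that Camta preferred close starts. The order of the groups turned when only pairs up to 500 bp apart were taken, at 10 bp (-3 to 22), and against the 856 pairs with a relaxed summit only, whose median was 256.5 bp, the shift was 6 bp (-9 to 22). Of the comparisons run, the shorter median was seen in those that included pairs over 500 bp apart without a relaxed summit.

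Most summits sat between the starts. Of the 759 kept summits, 616 (81.2%, 95% Wilson interval 78.2 to 83.8) lay between the nearest starts of both genes, with 78.5% in replicate 2 and 83.0% in replicate 3, against 590 of 984 relaxed summits under the same rule (60.0%), a difference of 21.2 points (95% Newcombe interval 17.0 to 25.3). The median summit was 66 bp from the midpoint, 66 bp upstream of the nearer start and 206 bp upstream of the farther one, and 303 (39.9%) lay within 50 bp of the midpoint. Neither strand was favoured, with 374 summits nearer the minus-strand gene, 383 nearer the plus-strand gene and 2 equally far. Strand only reflects the orientation of the chromosome, so this count cannot show whether summits favoured a particular gene of each pair. Of the 143 summits outside the starts, 73 lay inside the minus-strand gene, 67 inside the plus-strand gene and 3 downstream of both starts.

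The position depended on the room between the starts. With nearest starts 201 to 300 bp apart, 227 of 252 summits (90.1%) lay between them and 133 (52.8%) within 50 bp of the midpoint, where relaxed regions had 24.4%, a difference of 28.4 points (95% Newcombe interval 19.6 to 36.4). At 301 to 400 bp the shares within 50 bp of the midpoint were 31.0% and 13.0%. At 401 to 600 bp they were 14.8% and 21.2%, the other way round, and no interval was taken for this difference. The median kept summit there was nearer a start, at 111 bp, than the midpoint, at 130.5 bp. Relaxed summits had medians of 97 and 142 bp, in the same order. With starts up to 100 bp apart only 26 of 88 kept summits (29.5%) lay between them, the median summit being 25 bp inside the nearer gene and 82 bp upstream of the farther start, and the difference from relaxed regions, 3.86 points, had an interval from -6.67 to 15.4.

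**Figure D2:**
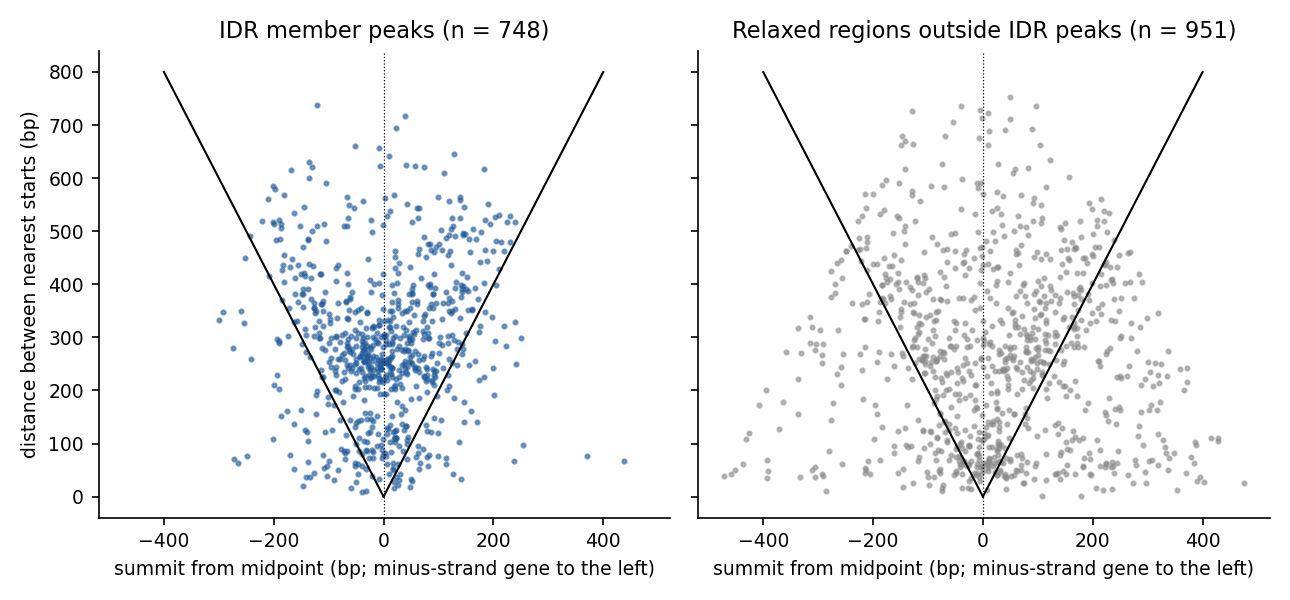
Position of each summit from the midpoint of the nearest starts (x, bp, minus-strand gene to the left) against the distance between those starts (y, bp), for kept IDR peaks (left) and relaxed regions outside IDR peaks (right); solid lines mark the starts and the dotted line the midpoint. IDR summits gather around the midpoint at 201 to 300 bp, where 90.1% lie between the lines, while 66.2% of the relaxed ones do.

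The strongest peak of all divergent pairs was that of Chro, which encodes the chromodomain protein Chromator, and Ssl1, which encodes a subunit of the transcription factor TFIIH. Its signal value was 618 in replicate 2 and 1022 in replicate 3, ranks 8 and 7 of those lists, and 1635 in the IDR list. The summit lay 191 bp upstream of Ssl1 and 86 bp inside Chro, outside the 105 bp between the facing starts printed above. Positions here are from each gene's transcript start nearest the summit, which need not be the facing one. At Art3, an arginine methyltransferase gene, and mRpS10, which encodes a mitochondrial ribosomal protein, the signal values were 481 and 857 (ranks 15 and 11), and the summit lay almost midway, 123 and 134 bp upstream of the starts on 3R. Both replicates placed these peaks near the top of their lists.

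Tcs5, which encodes a kinase of the tRNA-modifying KEOPS complex, and CHMP2B, an ESCRT-III gene, had 427 and 856 (ranks 27 and 12), with the summit 87 and 137 bp upstream. Fbw5, an F-box protein gene, and CG9147 had 475 and 771 (ranks 16 and 14). The summit there lay 145 bp upstream of Fbw5 and 11 bp inside CG9147. At mRpS23, another mitochondrial ribosomal protein gene, and CenG1A, which encodes an ArfGAP, the values were 436 and 674, rank 24 in both replicates, with the summit 127 bp from CenG1A and 365 bp from mRpS23. In these 5 pairs the replicate ranks were never more than 15 places apart.

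The other pairs among the 15 strongest had IDR signal values from 773 to 1022. They were Pdrg1/Pal1 and CG5757/CG5098 on 2R, Atat/Shc, an acetyltransferase of tubulin and a signalling adaptor, CG11309/CG7632, CG8372/CG8360, CG7601/CIA30, tank/CG12194, mRpL23/CG9004, Lon/PIG-F, a mitochondrial protease and a GPI anchor gene, and Mkk4/SLIRP2, whose first member encodes a MAP kinase kinase. At Atat/Shc the summit lay 124 and 128 bp upstream of the starts, at CG7601/CIA30 103 and 117 bp, at Lon/PIG-F 107 and 149 bp, and at Mkk4/SLIRP2 160 and 128 bp. Pairs with closer starts had the summit to one side, as at mRpL23/CG9004, 24 bp apart, where it lay 58 bp inside mRpL23 and 108 bp upstream of CG9004. Of these 15 pairs, 3 contain a mitochondrial ribosomal protein gene, as do 24 of all 752 pairs with a peak. The median IDR signal value was 128 in those 24 pairs and 157 in the 752.

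Peaks at divergent promoters were about as strong as those at 1 coding promoter. The median signal value was 154.6 over the 759 kept peaks (quartiles 117.4 and 230.9, range 95.5 to 1635) and 145 over 1244 peaks near a start of exactly 1 coding gene, a shift of 0.012 in log10 (95% Hodges-Lehmann interval -0.0026 to 0.0272). Of the 100 strongest IDR peaks, 24 were kept. Which replicate showed a shift depended on how it was measured. With the strongest regions of each replicate alone it was 0.0191 (0.00508 to 0.0334) in replicate 2 and 0.00765 (-0.00806 to 0.0236) in replicate 3. In the replicate region that overlapped each IDR peak, a comparison added after the values were seen, it was -0.0103 (-0.0307 to 0.0104) in replicate 2 and 0.0377 (0.0173 to 0.0577) in replicate 3. The median rank of that region was 2005 and 1617 for kept peaks, and 1914 and 1970 for the others. Among the kept peaks 104 overlap another IDR region and can share a replicate region with it.

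Both replicates held most of the kept peaks. Of the 759, 574 (75.6%) had 50% or more of their bases under the strongest regions of both replicates, against 74.2% of the other 3274 IDR peaks, a difference of 1.44 points (95% Newcombe interval -2.07 to 4.73). Replicate 2 alone covered 46 (6.06%, against 10.9% of single promoter peaks, a difference of -4.79 points with an interval from -7.16 to -2.28), replicate 3 alone covered 134 (17.7% against 15.7%), and 5 were covered by neither. Ranks were farthest apart at Vha68-1/mTor, a proton pump subunit and the growth kinase, with 19022 in replicate 2 and 1431 in replicate 3, at Kmn2/CG2698 with 7951 and 722, and at osi/tweek with 7252 and 952. In all 3 the peak was weaker in replicate 2. At osi/tweek the replicate 3 region also overlaps a stronger IDR peak of the same pair.

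**Figure D3:**
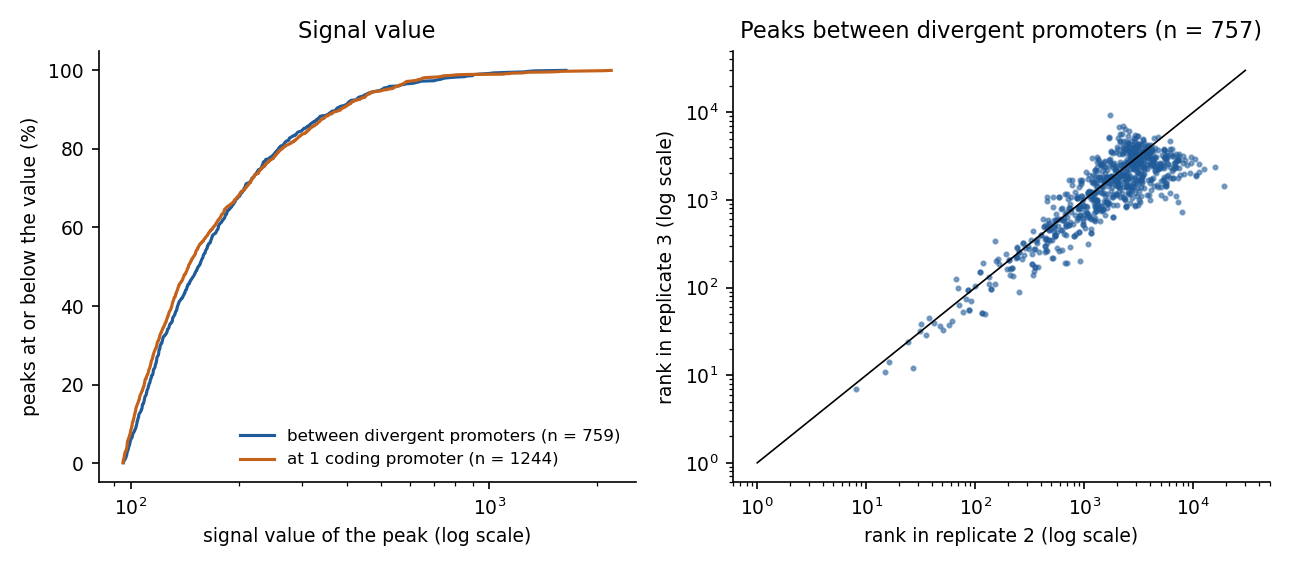
Left, share of peaks at or below each signal value (log scale) for the 759 peaks between divergent promoters and the 1244 at 1 coding promoter; right, rank of the overlapping region in replicate 2 against replicate 3 (log scales) for the 757 kept peaks with a region in both, with the line of equal rank. The medians on the left are 154.6 and 145, and points below the line, such as Vha68-1/mTor, rank higher in replicate 3.

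Which sequences set pairs with a peak apart from those without was asked with 14 motifs, searched on both strands in 301 bp around the midpoint of the facing starts. Motif 7 showed the widest gap, in 225 of 752 pairs with a peak (29.9%, 95% Wilson interval 26.8 to 33.3) and 271 of 1840 without (14.7%, 13.2 to 16.4), a difference of 15.2 points (9.91 to 20.7). This and the other motif intervals are Newcombe intervals widened to 99.6% for the number of motifs, and a motif was called where its interval left out 0, as for 6 of 14 (42.9%). Windows of the same width at the 19252 coding starts held Motif 7 in 13.7% of cases. Put the other way, 45.4% of the 496 pairs with Motif 7 had a peak and 25.1% of the rest, with 42.1% and 22.3% in replicate 2 and 46.4% and 26.0% in replicate 3.

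Motif 7 was most frequent beside the starts. Of the 401 kept summits with a match within 500 bp, the nearest match lay within 50 bp of the summit at 84 and within 100 bp at 193, with a median of 108 bp. In 50 bp steps its share in pairs with a peak was 9.71% and 8.11% at 101 to 150 bp to the left and right of the midpoint, and 3.99% and 4.39% in the steps next to the midpoint, where pairs without a peak had 3.37% and 3.70%. Among pairs 201 to 400 bp apart, searched from 100 bp inside one start to 100 bp inside the other, 194 of 389 with a peak (49.9%) and 137 of 534 without (25.7%) held it, a difference of 24.2 points (95% Newcombe interval 17.9 to 30.3). In those without a peak the median match was 0 bp upstream of the nearer start, and 52 of 171 matches (30.4%) lay 0 to 49 bp upstream. In those with a peak the median match was 8 bp upstream, and 133 of 292 matches (45.5%) lay 0 to 49 bp upstream. Atat/Shc shows this, with 2 matches beside the minus-strand start, and CG10147/Bulli, whose second member encodes a subunit of a Rab7 activator, has 2 at either end. alien, a COP9 signalosome subunit gene, and Ing5, which encodes a PHD finger protein, lie in stretches with 1 match and with 2, the latter near both starts.

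The Motif 7 difference depended on the spacing of the starts. In the midpoint window it was 36.0% against 15.9% at 201 to 400 bp, a difference of 20.1 points (95% Newcombe interval 14.4 to 25.7), but 30.7% against 24.5% up to 200 bp (6.15 points, -0.609 to 13.3) and 11.1% against 6.65% beyond 400 bp (4.46 points, -0.249 to 11.1). The first 2 of these differences differed by 13.9 points (4.79 to 22.7). For CGATA, the core of the DRE, the same contrast was 13.4 points (3.77 to 23.1). Its difference was -6.96 points up to 200 bp and 6.45 points at 201 to 400 bp. Motif 7 was the only one of the 14 called among pairs 201 to 400 bp apart, a subset chosen after the values were seen.

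The other called motifs were less firm. The ZIPIC core, the site of an insulator protein, was in 9.04% of pairs with a peak and 3.75% without (5.29 points, 2.28 to 8.98), against 3.07% of all coding starts, and 49.6% of the 137 pairs with it had a peak. The DRE stood at 17.2% and 12.1% (all starts 7.09%), its core CGATA, which every DRE contains, at 60.6% and 52.8% (46.0%), and the E-box at 23.9% and 18.0% (17.9%). The initiator, TCAGTC or TCAGTT, was less frequent, at 20.9% and 28.6% (37.5%). Against pairs without an IDR peak but with a relaxed summit the DRE and its core changed sign, at -1.77 and -2.21 points. Neither was called there, nor were the E-box, at 0.922, the ZIPIC core, at 2.97, and the initiator, at -4.47. Motif 7 was still called at 9.94 points (3.65 to 16.2), and Motif 1, at -5.95 points, was called as less frequent. Motif 7 and the DRE occurred together in 114 pairs, of which 49.1% had a peak, against 44.2% of 382 pairs with Motif 7 only, 30.7% of 238 with the DRE only and 24.4% of 1858 with neither.

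The CGCG box, CGCG with any base but T before it and any but A after it, was not called, at 21.0% of pairs with a peak and 19.5% without (1.55 points, -3.34 to 6.85), both under the 30.5% of all coding starts. Windows of all coding starts are centred on a start, not on a midpoint, so they cover unlike DNA. The GCGC control was under its all-start share too. With 250 bp either side of the midpoint the CGCG box was called, at 8.92 points (2.83 to 15.1). The remaining motifs that were not called, with all-start shares in brackets, were Motif 1 (GGTCACAC) at 9.71% and 9.89% (6.32%), Motif 6 (GGTATATTT or GGTATTTTT) at 7.05% and 6.30% (3.44%), and the TATA box, searched as TATAAAA and in a second form as TATATAA, at 36.3% and 36.3% (26.2%). The polypyrimidine initiator (TCT in the plot of motifs), searched as CTCTTTC, stood at 2.79% and 3.64% (5.32%). The GAGA motif, searched as GAGAG, was at 21.1% and 22.0% (33.6%). The CTCF core, AGNNGGC with a purine and then a keto base in the middle, stood at 9.04% and 9.29% (9.60%) and GCGC, a control flanked like the CGCG box, at 23.5% and 22.6% (35.3%). The median GC content of the windows was 35.2% with a peak and 34.2% without.

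**Figure D4:**
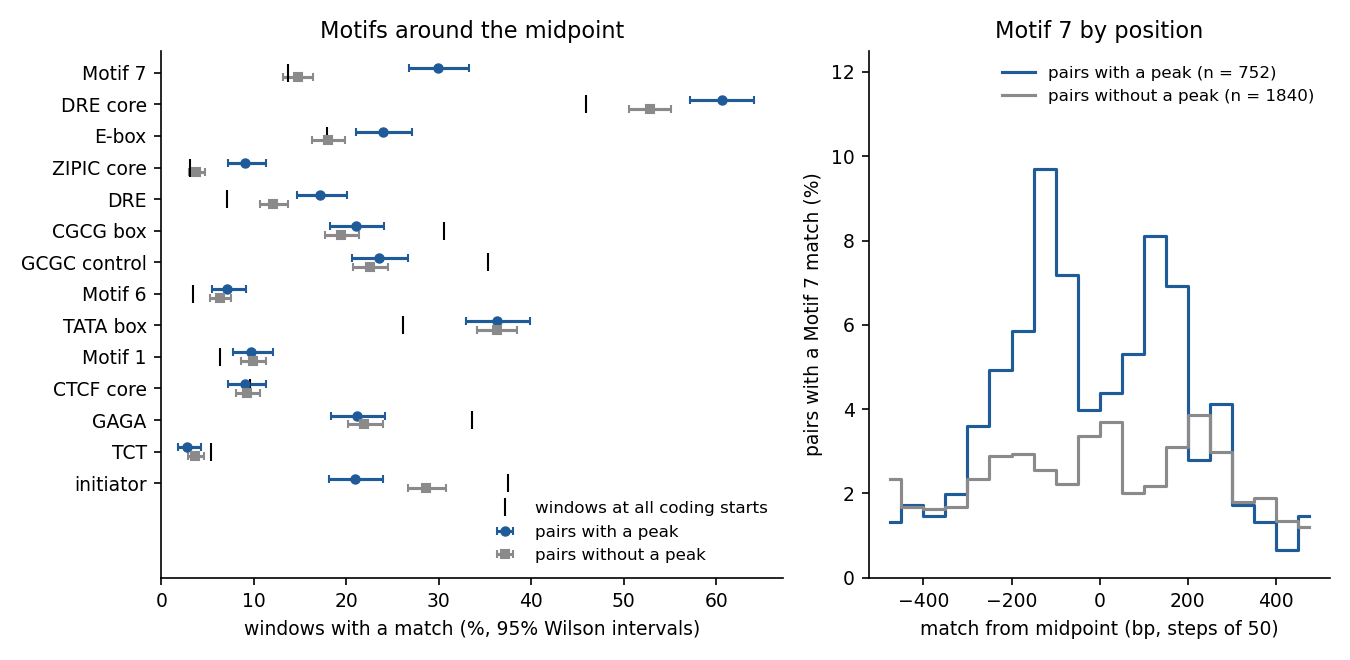
Left, share of 301 bp windows around the midpoint with each of 14 motifs, for pairs with (n = 752) and without (n = 1840) a peak, with 95% Wilson intervals, and the share at all coding starts (vertical ticks); right, share of pairs with a Motif 7 match in steps of 50 bp from the midpoint. Motif 7 is at 29.9% and 14.7%, and its matches in pairs with a peak are highest 101 to 150 bp to either side of the midpoint.

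At the summits themselves, in 101 bp windows, 4 of the 14 motifs (28.6%) were called between kept peaks and single promoter peaks. The TATA box was more frequent at 13.8% against 9.41% (4.43 points, 0.205 to 9.01), but was not called in 5 of 10 alternatives, among them the list without replicate 3 (3.42 points). GAGA (6.85% against 12.7%), the CGCG box (5.53% against 9.24%) and the GCGC control (8.83% against 14.1%) were less frequent. The CGCG box was not called without replicate 2, at -3.32 points, and stood at -6.58 without replicate 3. Kept summits were poorer in GC, with a median of 33.7% against 37.6%, and its part in these differences was not tested. Motif 7 was not called there, at 10.4% against 7.80% (2.61 points, -1.15 to 6.77), but was in either replicate's list alone, at 5.08 points without replicate 2 and 4.07 without replicate 3. No motif was called by these intervals among the strongest 2016 IDR peaks.

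Gene lists were read against all coding genes, of which 1456 of the 4993 in divergent pairs (29.2%, 95% Wilson interval 27.9 to 30.4) were in a pair with a kept peak. Cytosolic ribosomal protein genes and vesicle traffic genes had intervals above that share. Unlike those of the motifs, the list intervals here and below were not widened for the number of lists, 19. Among the former it was 33 of 56 (58.9%, 45.9 to 70.8), with RpS27/Nup37 at an IDR signal value of 707, RpL32/CG7943 at 639 and Ripalpha/RpL7 at 523, and 24 of the 37 outside divergent pairs were bound as well. For mitochondrial ribosomal protein genes it was 23 of 58 paired genes (39.7%), with an interval from 28.1 to 52.5 that holds 29.2%, and 0 of the 15 others were bound. Of 67 paired vesicle traffic genes, 29 (43.3%, 32.1 to 55.2) were in a pair with a peak, led by Fur1/Vps33B at 640 and alphaCOP/CG13919, a coatomer subunit gene, at 406, and 6 of the 43 others were bound.

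The other lists of genes with general cellular roles had shares from 22.6% to 40.0%, each with a Wilson interval that holds 29.2%. They were 13 of 46 for oxidative phosphorylation, with TppII/ND-MWFE at 362, 9 of 24 for aminoacyl-tRNA synthetases, with Hem/IleRS at 364, and 9 of 26 for the proteasome, with Hat1/Rpn5 at 353. For RNA polymerase and Mediator it was 17 of 56, with MED30/Rev1 at 460, for translation factors 7 of 28, for splicing 7 of 28, for DNA replication and repair 7 of 31 and for cell cycle 7 of 20. Chaperones had 6 of 16, nuclear pore genes 6 of 18, autophagy genes 5 of 16 and mitochondrial import 2 of 5. Chemosensory receptors had 1 of 37 paired genes in a pair with a peak (2.70%, 0.479 to 13.8), Ir60e beside CG13585, and cuticle proteins 0 of 11 (upper bound 25.9%), both with unwidened intervals below 29.2%. Cytochrome P450 genes had 1 of 12 (1.49 to 35.4) and serine proteases 0 of 8 (upper bound 32.4%), with intervals that hold it.

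**Figure D5:**
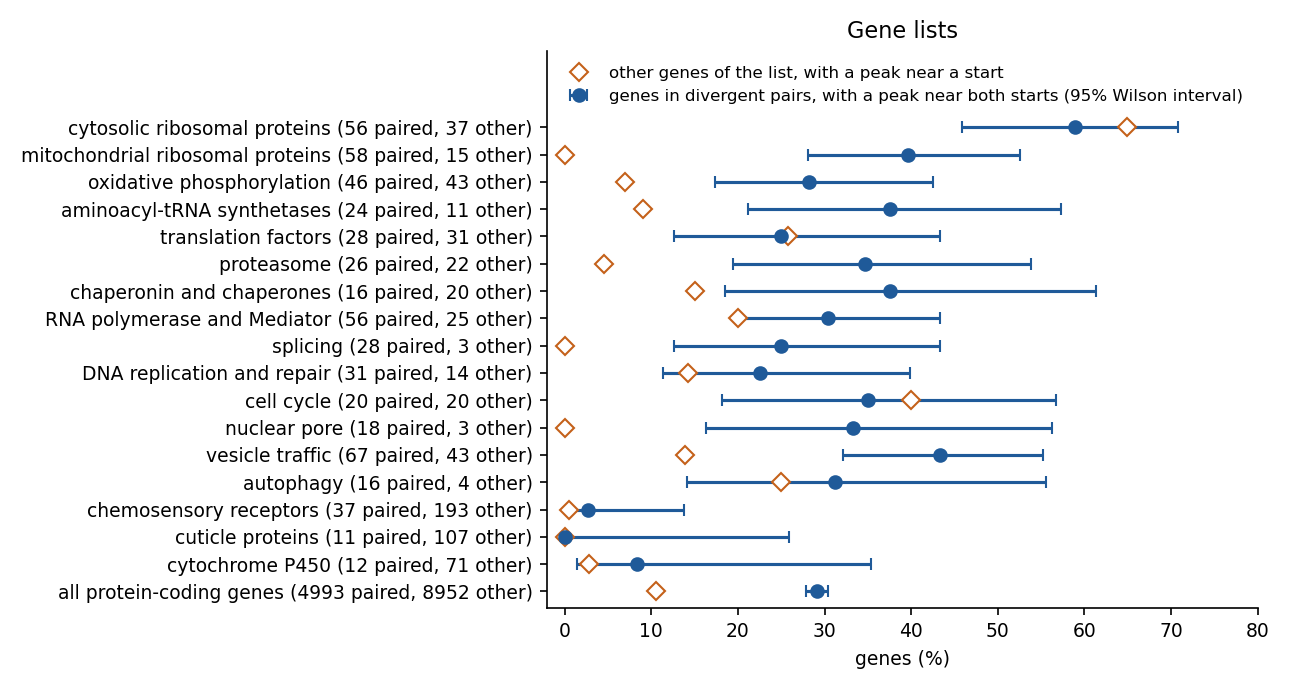
Share of genes of each list in divergent pairs that had a kept peak (points, 95% Wilson intervals) and share of the list's other genes bound by the 500 bp rule (diamonds), for lists with at least 10 paired genes. Cytosolic ribosomal protein genes are at 58.9% and 64.9%, mitochondrial ones at 39.7% and 0%, and all protein-coding genes at 29.2% and 10.6%.

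By chromosome arm the share of pairs with a peak was highest on 3R, at 231 of 654 (35.3%), and lowest among the large arms on X, at 95 of 396 (24.0%), a difference of 11.3 points (95% Newcombe interval 5.63 to 16.8) between arms chosen after their values were seen. Replicate 2 had 31.7% and 23.0% there, and replicate 3 had 36.5% and 22.7%. Arms 2L, 2R and 3L stood at 27.5%, 28.5% and 27.5%, and none of the 11 pairs on chromosome 4 had a peak, with 0% in replicate 2 and 18.2% in replicate 3.

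At the extremes of spacing, peaks were found at CG11710/mal and dpa/didum, with facing starts 2 bp apart and IDR signal values of 188 and 297, and at CG3032/CG4593, 6 bp apart, with 153. dpa encodes a subunit of the MCM helicase and didum a myosin. The widest were CG2246/CG31021, 717 bp apart, with 106, RpS5a/Chchd2, 737 bp, with 105, and sub/CG10931, 857 bp, with 122, where sub encodes a kinesin of meiotic spindles. All of these were below the median of 154.6 except CG11710/mal and dpa/didum. The strongest relaxed regions at pairs without an IDR peak had signal values of 95.2 at CG12811/ohgt and spirit/CG12065 and 95.1 at eff/jvl, just under the weakest kept peak at 95.5. Fbxl4/Dus2, 65 bp apart, had 109 in replicate 2, 217 in replicate 3 and 316 in the IDR list. Fbxl4 is an F-box protein gene known as a Camta target in photoreceptors. The summit lay outside the 65 bp between the facing starts, 339 bp upstream of the nearest Fbxl4 start and 53 bp upstream of the nearest Dus2 start. Camta and Cam, the calmodulin gene, were in no divergent pair. Just inside the rule, 27 peaks had a farther start 451 to 500 bp from the summit, with signal values of 95.7 to 863 and a median of 128, and just outside it, 22 peaks at 501 to 550 bp had 99.3 to 290, with a median of 137.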

How the data were processed

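The authors deposited dm6 lists of regions: 1 list of peaks past the IDR threshold, and relaxed lists of peaks and background made as input for IDR from both replicates (30000 regions), replicate 2 (30000) and replicate 3 (29279), per the file records. Each deposited region has a signal value, on an unstated scale, the −log10 of a q-value, which was not used to rank, and a summit offset in bases. For the aligner and peak caller, names were not given in the sources used here. Separate embryo collections are stated only as biological replicates.

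Coding genes and transcript starts came from Ensembl 115 (BDGP6.54) and sequence from RefSeq Release 6, both in dm6 coordinates. Shares have 95% Wilson intervals, differences Newcombe intervals, and medians Hodges-Lehmann shifts. For each replicate alone, the 4033 strongest regions of its relaxed list were used. Named pairs came from the 15 strongest, the shortest and longest, the widest rank gaps, the strongest without an IDR peak, the strongest of each gene list and Fbxl4/Dus2. Gene lists were symbol patterns, corrected after the matched names were seen. Members and lists were chosen with earlier results of these data known. The interval and pair routines were tested on simulated data. Scripts ran in Python 3.11.15 with matplotlib 3.10.9, SciPy 1.17.1, pandas 2.3.3 and NumPy 2.4.6. Alternatives changed the window, start distance, starts per gene, peak number, replicate and motif window.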

Additional observations from a re-analysis of the deposited data

How the results depend on the processing

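No paired analysis was possible because there is 1 group. The share of pairs with a peak (29.0%) ranged from 26.1% to 29.9% with either replicate left out, and was 16.0% for the strongest 2016 peaks, 19.6% with a 250 bp window, 34.8% with 1000 bp, 34.9% for starts up to 500 bp apart and 25.1% up to 2000 bp. Summits between the starts were 77.8% with a 1000 bp window and 77.2% with 1 start per gene. The shift in start distance changed sign to 10 bp, with an interval that held 0, for starts up to 500 bp apart. The signal shift (0.012 in log10) had intervals without 0 without replicate 3 (0.0191), with a 250 bp window (0.0463), for starts up to 500 bp apart (0.0183) and in the overlapping region of replicate 3 (0.0377, added after the data were seen). With either replicate left out it ranged from 0.00765 to 0.0191. Between pairs 6 of 14 motifs were called, and 3 of 14 with the strongest 2016 peaks, with a 1000 bp window, for starts up to 500 bp apart, for those up to 400 bp apart and with 100 bp either side of the midpoint. Against unbound pairs with a relaxed summit 2 were called, Motif 7 and Motif 1, the latter not among the 6, and for pairs over 200 and up to 400 bp apart 1 was. The DRE changed sign to -1.77 points and its core to -2.21 against pairs with a relaxed summit. For pairs up to 400 bp apart the core stood at -0.232, and none of these was called. Motif 7 was called in 15 of 15 alternatives, at 7.51 to 22.3 points. At summits, where 4 were called, the number was 4 to 7 with either replicate left out, 0 for the strongest 2016 peaks, 1 with 25 bp and 8 with 100 bp either side. The cause of these changes was not tested. The differences in gene share, in share of IDR peaks and between start distances kept their direction and intervals without 0 in every alternative run. The replicate coverage difference ranged from -1.56 to 2.18 points, with intervals that held 0. Sequencing depth is unknown, so counting error of reads could not be given.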
